A study of Mus musculus with 32 samples.

Results

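The hippocampus of young mice that lack caspase-11 was compared with that of young wild type mice. The comparison took the 4 arrays titled CASP 11-/-, young and the 4 arrays titled Wild type, young, which were 8 of the 32 arrays of the series, and the samples were chosen by title alone. Both groups were on the C57BL/6J background, were 1 month old when killed and had been kept on chow since weaning. Each array held total RNA of hippocampus, extracted with Trizol, cleaned on columns with DNase and labelled with biotin. The CASP11 knockout carried CASP11-/- and the wild type carried no stated allele. The labels do not say how the allele was made, how many generations it was crossed to C57BL/6J, or whether littermates served as controls. The other arrays came from young and old ASC and CIAS knockouts and from old wild type mice, with 6 arrays in each old group. Titles of the old groups give 23 months, while another label of most old ASC knockout samples gives 21. The 3 young ASC and 3 young CIAS knockout arrays, also at 1 month, were used here as further young groups.

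Caspase-11, which the mouse gene Casp4 encodes, is an inflammatory caspase that binds bacterial lipopolysaccharide in the cytosol. Once active it cuts gasdermin D, whose fragments form pores in the cell membrane and lead to the inflammatory cell death called pyroptosis. This route is called the non-canonical inflammasome, in contrast to the canonical one, in which a sensor such as Nlrp3 and the adaptor ASC activate caspase-1. In brain, these genes are known mainly from microglia, the resident macrophages of the tissue.

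Signals are given on the log2 scale after background correction and quantile normalization, so a difference of 1 is a doubling. A gene was called changed when its adjusted p from limma lay under 0.05 over all features tested. The labels do not say that the samples of a group were separate animals, so the spread within groups may be technical. Each p-value from limma reflects only such spread, estimated over all groups of the series and not over the compared samples alone. The 4 wild type arrays detected 13319 to 13554 probes at median signals of 58.3 to 79.0, and the 4 CASP11 knockout arrays 13237 to 13662 probes at 63.9 to 77.8. Correlations over all features tested were 0.9931 to 0.9949 between wild type arrays, 0.9941 to 0.996 between CASP11 knockout arrays, and 0.9883 to 0.9931 across the groups. The Y-linked transcript Eif2s3y was detected on wild type replicates 1 and 2 and on CASP11 knockout replicates 1 and 3, so neither group came from 1 animal alone and both were split evenly for it. Defining genes of the tissue were measured, with 16 of 19 hippocampal subfield markers on the array passing the filter on dim probes. Their summed level was 13.72 to 14.00 in wild type and 13.84 to 13.91 in the CASP11 knockout. The arrays were numbered in the deposited table by genotype, 1 to 4 for young wild type and 31 to 34 for CASP11 knockout, so array number and genotype cannot be told apart.

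The targeted gene came first. Casp4, on chromosome 9, has 3 probes on the array, and 2 of them were detected on 0 of the 32 arrays. The third read 5.66, 5.46, 5.24 and 5.46 in wild type and 5.32, 5.44, 5.52 and 5.51 in the CASP11 knockout, so the groups overlapped. Their means differed by -0.003, with p = 1 in a 2-sided exact permutation test whose smallest possible p with 4 against 4 arrays is 0.0286. The sources used here do not place this probe relative to the deleted part of the gene, so the signal neither checks the genotype nor measures the protein. Casp1, which encodes the neighbouring caspase that matures interleukin-1, read 7.19, 7.69, 7.09 and 7.21 in wild type and 7.33, 7.50, 7.36 and 7.63 in the knockout. The difference of 0.16 was within the spread (exact permutation p = 0.343). Casp12, the third inflammatory caspase of this cluster, was detected on none of the 32 arrays.

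Across the whole array, more genes were lower than higher in the CASP11 knockout, and the falls were larger than the rises. Of 11178 features tested, 299 were called (2.67%), 92 of them higher (0.823%) and 207 lower (1.85%). At an unadjusted p under 0.05, 1687 features passed (15.1%). The median difference was 0.42 among the higher, -0.63 among the lower and 0.01 over all features. By the measured means, 2 genes were at least 2-fold higher, Rbm3 and Hyou1, while 54 features were at least 2-fold lower. Hyou1 read near the detection limit in wild type, and its difference was as small as 0.64 under other processing choices. The 4 arrays of the groups did not overlap for 81 of the 92 higher and 200 of the 207 lower features, against 5.89% of all features tested with the knockout above, 7.3% with it below and 13.2% in either direction. Of the lower features, 40 were detected on no CASP11 knockout array, and 36 of these on every wild type array. The lower genes spanned a median of 48.9 kb from first to last base of the annotated gene, with quartiles of 18.3 and 135 kb, against 21.9 kb for the higher genes and 22.2 kb for genes not called. The number of calls was 224 and 266 without wild type replicates 2 and 4, but it moved by more than 1.5 times without each of the other 6 arrays: it was 171 without wild type replicate 1, 165 without wild type replicate 3, and 157, 150, 142 and 196 without CASP11 knockout replicates 1, 2, 3 and 4. It was 490 without replicate 6 of the old wild type, which enters through the shared estimate of the spread.

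**Figure D1:**
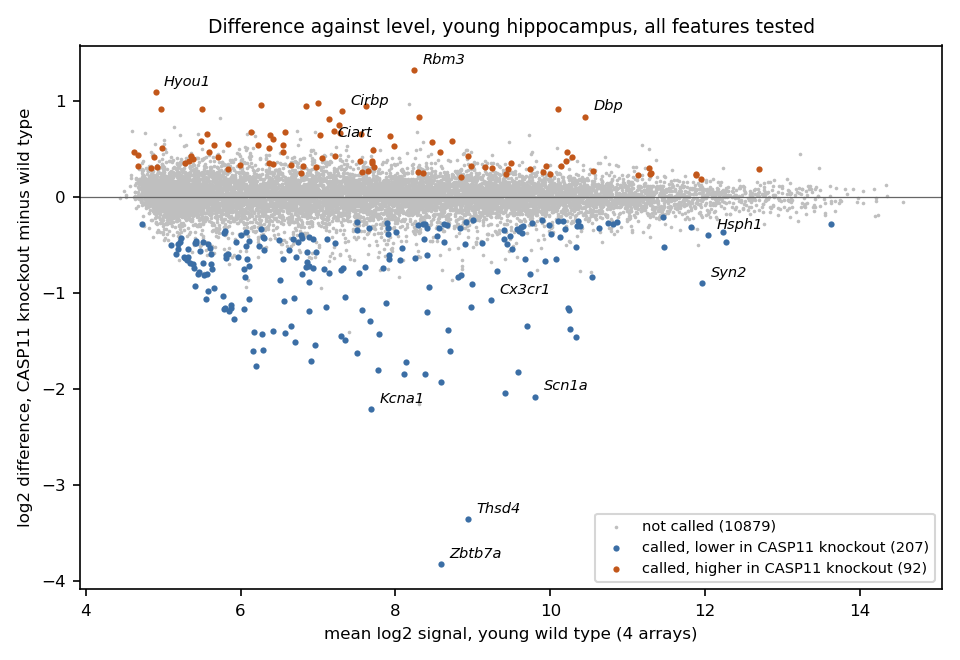
Log2 difference between young CASP11 knockout and young wild type (y) against the mean log2 signal of the 4 wild type arrays (x), 1 point per feature tested. The 207 called lower features (blue) reach -3.82 and the 92 called higher features (orange) reach 1.32.

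The largest fall was that of Zbtb7a, on chromosome 10, which encodes a zinc finger transcriptional repressor. Its signals were 8.69, 8.63, 8.42 and 8.63 in wild type and 4.65, 4.99, 4.72 and 4.70 in the CASP11 knockout. It was detected on all 4 wild type arrays and on no knockout array. Zbtb7a was thus at least 11.8-fold lower (difference of the measured means -3.82, SE 0.36, adjusted p = 2.0e-07). Bounds of this kind compare the wild type mean with the lowest signal at which probes were detected on the knockout arrays. They hold only for the background correction and offset used here. Under other processing choices the measured difference of Zbtb7a was as small as -2.78. Thsd4, on chromosome 9, which encodes a matrix protein that binds fibrillin, read 8.51, 8.97, 9.09 and 9.19 against 5.32, 5.82, 5.56 and 5.66. This gap of -3.35 (SE 0.48, adjusted p = 7.7e-05) far exceeded the SD of 0.30 in wild type and of 0.21 in the knockout.

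Ion channels among the 15 largest falls were Kcna1 and Scn1a. Kcna1, a voltage-gated potassium channel of axons, read 7.49, 7.62, 8.00 and 7.63 in wild type and 5.48, 5.39, 5.48 and 5.56 in the knockout, a 4.62-fold fall (-2.21, SE 0.26, adjusted p = 7.1e-06). Scn1a, the sodium channel that drives firing of inhibitory interneurons, read 9.82, 9.93, 9.77 and 9.70 against 7.66, 7.88, 7.62 and 7.75, a 4.22-fold fall (-2.08, SE 0.26, adjusted p = 1.3e-05). For both channels every knockout array lay below every wild type array by more than the whole range within a group. Tenm4, a teneurin that joins cells at synapses and during development, fell by 1.82 on the log2 scale from a mean of 9.59 ± 0.05 (SD, n = 4) to 7.77 ± 0.27 (adjusted p = 0.00058).

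Ppargc1a, the coactivator that turns on mitochondrial genes, read 9.35, 9.38, 9.41 and 9.55 in wild type and 7.39, 7.34, 7.21 and 7.56 in the knockout (-2.04, SE 0.26, adjusted p = 1.5e-05). The 24 oxidative phosphorylation genes tested held no called member, against 2.67% of all features, and had a median difference of -0.01. Ddx6, an RNA helicase of processing bodies, went from 8.59 ± 0.45 to 6.67 ± 0.21 (-1.92, adjusted p = 0.0010), and both of its other measured probes were also called, at -1.77 and -1.10. Bbx, an HMG-box protein, fell by 1.62 from 7.51 ± 0.12 to 5.89 ± 0.40 (adjusted p = 0.0062). Nsd1, a histone methyltransferase, and Mllt3, a reader of acylated histones in elongation complexes, differed by -1.71 and -1.80, with adjusted p of 6.0e-05 and 0.00018. Their second probes differed by only -0.12 and -0.09 and were not called. That of Nsd1 averaged 5.519 in wild type and 5.396 in the knockout, near the detection limit, so it could hardly show such a fall. That of Mllt3 averaged 7.335 and 7.24 and did not share the fall. The place of these probes in the transcripts was not analysed. Fits of the 8 arrays alone chose the second probe of Mllt3 as the brighter, and the call was lost there, with adjusted p up to 0.556.

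Irs2, the insulin receptor substrate, read 8.43, 8.49, 8.44 and 8.17 in wild type and 6.23, 6.88, 6.01 and 7.05 in the knockout (-1.84, SE 0.36, adjusted p = 0.0036). The knockout arrays were thus all low but spread over more than 1 log2 unit. Creg2, a secreted glycoprotein of brain, fell by 1.72 (adjusted p = 0.012). Cit, the citron kinase of dividing cells, was detected on all 4 wild type arrays and no knockout array and was at least 2.23-fold lower (measured means 6.19 and 4.43, adjusted p = 4.9e-05). Dbpht2 was likewise detected on no knockout array and was at least 2.18-fold lower (measured means 6.16 and 4.56, adjusted p = 7.1e-06). Under other processing choices the measured differences of Cit and Dbpht2 were as small as -0.95 and -0.88, less than these bounds. Fam168a fell by 1.60, from 8.71 ± 0.15 to 7.11 ± 0.20.

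**Figure D2:**
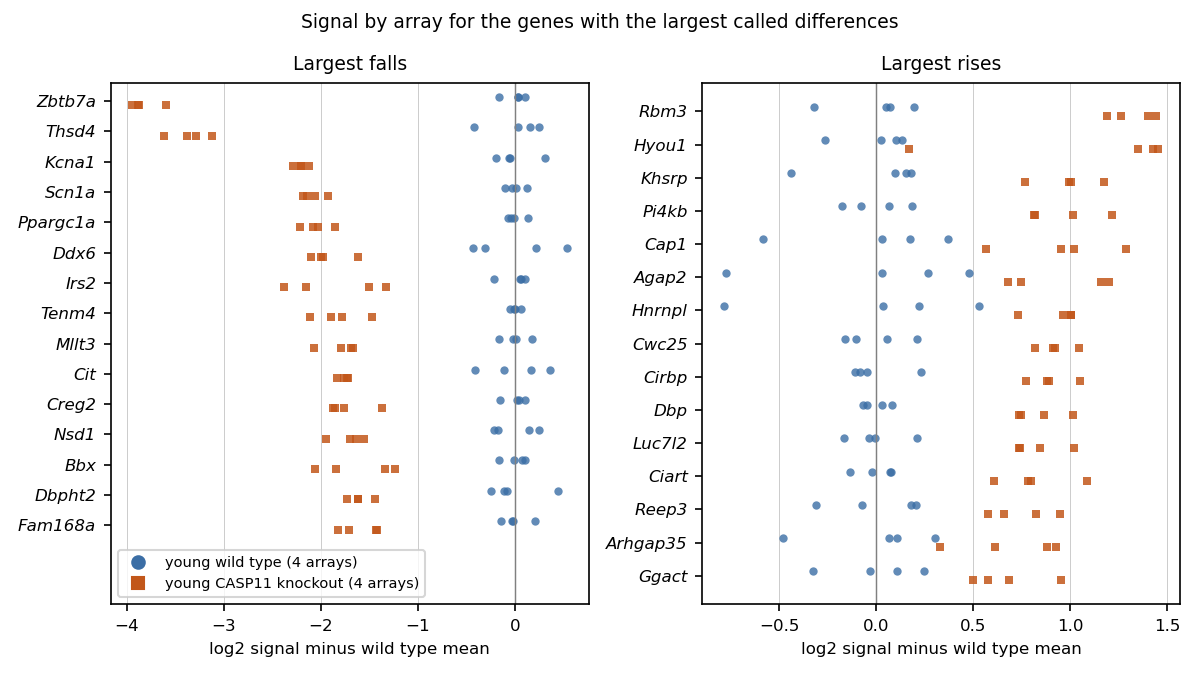
Log2 signal of each array minus the wild type mean for the 15 genes with the largest called falls (left) and the 15 with the largest called rises (right). Circles are the 4 wild type arrays and squares the 4 CASP11 knockout arrays; the arrays of Hyou1 nearly meet because knockout replicate 1 reads 5.07.

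The rises were smaller, and the highest of them included both cold-inducible RNA-binding proteins, Rbm3 and Cirbp, which cells make more of at mild hypothermia. Rbm3, on the X chromosome, read 8.29, 8.44, 7.92 and 8.31 in wild type and 9.43, 9.68, 9.64 and 9.50 in the knockout (1.32, SE 0.14, adjusted p = 2.1e-06). The 2 other measured probes of Rbm3 differed by 0.03 and 0.17 and were not called. Their group means of 5.035 to 5.303 lay near the detection limit, so they check the rise only weakly. Cirbp, on chromosome 10, read 7.54, 7.20, 7.22 and 7.26 against 8.08, 8.20, 8.35 and 8.19 (0.90, SE 0.12, adjusted p = 2.2e-05). In both genes all 4 knockout arrays stood above all 4 wild type arrays. Young wild type was the lowest of the 7 groups for Rbm3, with 8.24, while young ASC and CIAS knockouts averaged 8.87 and 8.67 and the 3 old groups 9.28 to 9.42.

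Khsrp, a KH-domain protein of mRNA decay, went from 7.00 ± 0.29 to 7.99 ± 0.17 (0.98, adjusted p = 0.00030), and Hnrnpl, a splicing regulator, from 10.09 ± 0.56 to 11.02 ± 0.13 (0.93, adjusted p = 0.0040). Luc7l2, a partner of the splicing machinery, rose by 0.83 and Cwc25, a spliceosome factor, by 0.92. Cwc25 was detected on 2 of the 4 wild type arrays and on all 4 knockout arrays.

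Among enzymes and membrane or cytoskeletal proteins, Pi4kb, a lipid kinase of the Golgi, read 6.08, 6.45, 6.18 and 6.33 in wild type and 7.08, 7.48, 7.27 and 7.08 in the knockout (0.97, SE 0.18, adjusted p = 0.0025). Agap2, which switches off Arf proteins, Cap1, which recycles actin, and Reep3, a shaper of the endoplasmic reticulum, rose by 0.95, 0.96 and 0.75. Arhgap35 rose by 0.69 and Ggact by 0.68. These last 5 calls each rested on particular arrays. Agap2 lost its call without wild type replicate 1 or knockout replicate 2 or 3 (adjusted p 0.0627 to 0.0919). Cap1 did so without wild type replicate 1 or knockout replicate 3 (0.068 and 0.083), and Reep3 without wild type replicate 3 or knockout replicate 1 or 3 (0.0503 to 0.0676). Ggact did so without wild type replicates 1 or 3 or knockout replicates 2 or 3 (0.0664 to 0.117), and Arhgap35 without any of 6 arrays, wild type replicates 1, 3 and 4 and knockout replicates 1, 2 and 3 (0.0543 to 0.185). Cap1 was the only called gene of 23 tested in the list of actin turnover, against 2.67% of all features. The median difference of that list was 0.12, and 0.08 to 0.16 when single arrays were left out.

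The clock genes held called members in both directions. The circadian clock is a feedback loop in which Clock and Arntl bind E-boxes and turn on their own repressors and output genes, while the factors of the Ror family turn on and those of the Nr1d family repress Arntl. Of 16 clock genes tested, 3 rose (Dbp, Ciart and Per3) and 3 fell (Arntl, Nfil3 and Rorb), against 0.823% and 1.85% over all features. The median difference of the list was 0.17. Promoters are shown for the 3 of these 6 genes that hold the matching clock motif in the window from 250 bases before to 50 bases after the gene's start. They were read from RefSeq on GRCm38.p6, and the capitals mark matches on either strand.
Ciart, chr3:95882179-95882478, minus strand, E-box in capitals: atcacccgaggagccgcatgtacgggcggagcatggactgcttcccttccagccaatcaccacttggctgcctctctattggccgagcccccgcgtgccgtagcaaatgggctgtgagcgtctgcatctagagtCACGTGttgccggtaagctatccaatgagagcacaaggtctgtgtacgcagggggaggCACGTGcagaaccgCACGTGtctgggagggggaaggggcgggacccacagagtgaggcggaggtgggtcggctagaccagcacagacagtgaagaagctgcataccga
Per3, chr4:151044616-151044915, minus strand, D-box in capitals: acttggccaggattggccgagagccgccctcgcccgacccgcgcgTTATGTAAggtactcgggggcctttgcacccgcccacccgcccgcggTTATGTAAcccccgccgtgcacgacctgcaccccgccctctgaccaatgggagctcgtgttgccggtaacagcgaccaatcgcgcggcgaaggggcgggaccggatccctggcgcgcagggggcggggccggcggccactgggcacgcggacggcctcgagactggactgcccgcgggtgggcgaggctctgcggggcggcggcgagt
Arntl, chr7:113207261-113207560, plus strand, Ror element in capitals: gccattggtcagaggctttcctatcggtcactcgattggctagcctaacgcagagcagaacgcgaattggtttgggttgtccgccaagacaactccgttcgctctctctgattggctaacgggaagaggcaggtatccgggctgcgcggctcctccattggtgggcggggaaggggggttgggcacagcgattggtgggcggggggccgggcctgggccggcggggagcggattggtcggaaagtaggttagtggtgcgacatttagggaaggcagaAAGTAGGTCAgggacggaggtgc
The letters searched were CACGTG for the E-box, which 7.15% of all 32851 such windows hold, TTATGTAA for the D-box (0.938%) and GGTCA with AANTN before it for the Ror element (0.606%). Ciart holds the E-box 3 times, Per3 the D-box 2 times and Arntl the Ror element 1 time, in the second of its 2 windows. The windows of Dbp, Nfil3 and Rorb hold none of the 3 strings. These matches describe the letters in the window and say nothing of binding.

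Dbp, an output activator that binds D-boxes, read 10.54, 10.39, 10.41 and 10.48 in wild type and 11.19, 11.47, 11.20 and 11.32 in the knockout, a rise of 0.84 (SE 0.15, adjusted p = 0.0014). Ciart, a repressor of the Clock and Arntl pair, read 7.21, 7.22, 7.12 and 7.01 against 7.75, 7.92, 7.93 and 8.23 (0.82, SE 0.14, adjusted p = 0.00063). Its second probe gave nearly the same rise, 0.79 (adjusted p = 0.0029). The knockout arrays stood above all wild type arrays for both genes, and both calls held when any 1 of the 8 arrays was left out. Per3, a repressor of the Per family, read 5.23, 5.58, 5.60 and 5.95 against 6.06, 6.17, 6.12 and 5.92 and overlapped between groups (0.48, adjusted p = 0.039). Cry2 (0.27), Per1 (0.47) and Nr1d2 (0.36) had differences of the same sign that did not pass, with adjusted p of 0.094, 0.31 and 0.15.

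Arntl, the activator of the loop, read 9.21, 8.95, 9.21 and 9.13 in wild type and 8.67, 8.74, 8.73 and 8.45 in the knockout, a fall of 0.47 on the log2 scale with no overlap (adjusted p = 0.023). Nfil3, a repressor that competes at D-boxes, read 8.57, 8.68, 8.52 and 8.47 against 8.22, 8.30, 8.06 and 8.37 (-0.32, adjusted p = 0.030). Rorb, an activator of the Ror family and a cortical layer marker, read 6.57, 7.21, 6.71 and 6.46 against 6.34, 6.28, 6.30 and 6.18 (-0.46, adjusted p = 0.035), with wild type replicate 2 the highest. The knockout arrays lay below the wild type arrays in all 3 genes. Calls for Per3, Arntl, Nfil3 and Rorb were not steady. Arntl lost its call without wild type replicate 1 or 3 or knockout replicate 1 or 4 (adjusted p 0.0541 to 0.0863). Per3 and Nfil3 lost theirs without any of wild type replicates 1, 2 and 3 and knockout replicates 1, 2 and 3 (up to 0.185 and 0.129), and Rorb without wild type replicate 2 or 3 or any knockout replicate (up to 0.165). Between 2 and 6 clock genes were called under the alternatives tried. The labels give no hour of collection.

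**Figure D3:**
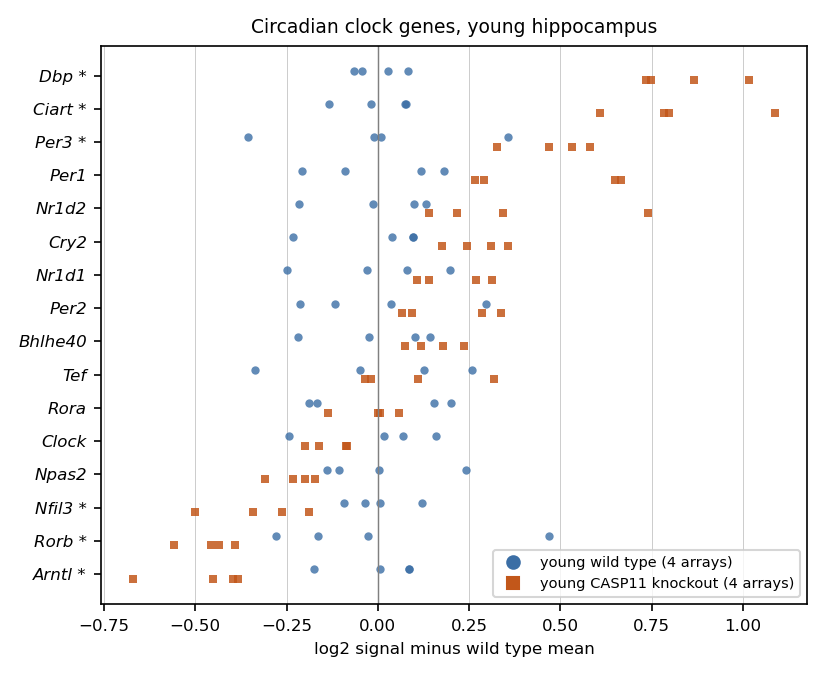
Log2 signal of each array minus the wild type mean for the 16 clock genes tested, ordered by difference, with called genes marked by an asterisk. Circles are the 4 wild type and squares the 4 CASP11 knockout arrays; Dbp and Ciart separate fully at the top and Arntl at the bottom.

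Chaperones of the heat shock response were mostly at or slightly below the wild type level. Of 17 tested, 2 fell, against 1.85% of all features, and none rose. A difference above 0 was seen for 4 and the median was -0.09, which became 6 and -0.06 without knockout replicate 3. Hsph1, a large heat shock protein that recharges its smaller relatives, read 12.06, 12.08, 11.99 and 12.02 in wild type and 11.67, 11.60, 11.68 and 11.64 in the knockout. This fall of 0.39 was small, but it far exceeded the SD of 0.04 in each group (SE 0.07, adjusted p = 0.0018). Chordc1, a co-chaperone that is itself induced by heat, read 10.44, 10.22, 10.33 and 10.39 against 10.07, 10.01, 10.05 and 10.07 (-0.30, adjusted p = 0.042). Its call was lost without wild type replicate 1, 3 or 4 or without any knockout replicate (adjusted p 0.0762 to 0.137). The promoter of Chordc1 is shown because 3 overlapping matches to the heat shock element lie within it. The element was searched on both strands as 3 units GAA in alternating orientation with NN between them, and 0.603% of all windows hold it.
Chordc1, chr9:18292017-18292316, plus strand, heat shock element in capitals: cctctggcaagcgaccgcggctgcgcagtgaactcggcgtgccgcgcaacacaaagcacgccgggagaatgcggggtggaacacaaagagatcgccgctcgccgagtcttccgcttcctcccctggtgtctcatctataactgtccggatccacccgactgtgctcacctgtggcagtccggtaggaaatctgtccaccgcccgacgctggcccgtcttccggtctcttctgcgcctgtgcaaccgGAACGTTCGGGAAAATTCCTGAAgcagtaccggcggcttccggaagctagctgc
Both windows of Hsph1 hold the element 1 time and an E-box 1 time. Hspa8, the constitutive member of the family, differed by -0.01.

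Of 20 genes of the unfolded protein and integrated stress response, 1 rose, against 0.823% of all features, and 10 passed at an unadjusted p under 0.05, against 15.1%. Of the 20, 9 had a difference above 0, and the median was -0.04, and -0.05 to -0.01 when single arrays were left out. Hyou1, a chaperone of the endoplasmic reticulum, read 4.63, 5.00, 4.93 and 5.03 in wild type and 5.07, 6.25, 6.32 and 6.36 in the knockout (1.10, SE 0.20, adjusted p = 0.0021). It was detected on 1 wild type array and on all 4 knockout arrays, and knockout replicate 1 lay just above the wild type range. Without that replicate the difference was 1.41. Hspa5, the main chaperone of the same compartment, differed by -0.28 and Pdia6, which forms disulfide bonds there, by -0.33, and neither passed.

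Of 9 genes tested from the list of inflammatory caspases, gasdermins and pyroptosis, none was called, in a background of 2.67% of all features. At an unadjusted p under 0.05, 3 of the 9 passed, against 15.1%. The median difference was 0.16, but knockout replicate 1 was the highest of the 8 arrays for 5 of the 9 genes, and without it the median was 0.04. The largest difference in the list, 0.69, was that of Gbp2, which is taken up below with the interferon-stimulated genes. Neither Casp1 nor Casp4 was highest on knockout replicate 1. Gsdmd, which encodes the pore-forming gasdermin D, differed by 0.10. Of 9 genes of the inflammasome sensors and the interleukin-1 family, none was called and the median was -0.02, and 1 passed at an unadjusted p under 0.05, against 15.1% of all features. Il1b, the main inflammasome cytokine, read 5.30, 4.97, 4.78 and 4.83 against 4.71, 5.13, 4.72 and 4.83, close to the detection limit. Il18, its relative, read 8.80, 8.75, 8.61 and 8.73 against 8.57, 8.61, 8.82 and 8.57, so both overlapped. Traf6, a ubiquitin ligase of Toll-like and interleukin-1 receptor signalling, was the single called gene of 15 in the list of the NF-kB response, with a fall of 0.28 (adjusted p = 0.0498). Its call was lost without wild type replicates 1, 2 or 4 or knockout replicates 1, 2 or 3 (adjusted p 0.102 to 0.148), and under 8 of the 14 other alternatives. Another probe of Traf6, detected on all 8 arrays, differed by only -0.09 and was not called. A further one, detected on 0 of the 8 arrays, differed by 0.004.

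Interferon-stimulated and antigen-presenting genes were high on 1 CASP11 knockout array. Of 20 interferon-stimulated genes tested, 16 had a difference above 0. Only Ifit3, an antiviral protein, was called, and it rose, against 0.823% of all features. At an unadjusted p under 0.05, 7 of the 20 passed, against 15.1%. Ifit3 read 7.63, 7.81, 7.55 and 7.24 in wild type and 8.76, 8.33, 7.81 and 8.00 in the knockout (0.66, adjusted p = 0.038). Replicate 1 was the highest of the 8 arrays for 15 of these 20 genes and for 12 of 13 genes of MHC class I and II. Gbp2, a guanylate-binding protein that helps expose bacteria to caspase-11, read 6.66, 6.90, 6.89 and 6.49 in wild type and 8.95, 7.07, 6.85 and 6.84 in the knockout. Irgm2, an interferon-induced GTPase, read 6.47, 6.86, 6.69 and 6.39 against 8.40, 6.54, 6.59 and 6.58. Both genes thus stood apart only on replicate 1, and neither was called. Other lists were high on it as well: it was the highest array for 7 of 13 meningeal fibroblast markers, 8 of 18 endothelial and mural cell markers and 6 of 9 complement genes. Their part in the interferon and MHC values was not tested. The same array led for H2-Ab1, a chain of MHC class II, at 7.26 against 4.63 to 5.30 on the other 3 knockout arrays, and for Cd74, its chaperone, at 7.04 against 4.82 to 5.31.

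Without replicate 1, the 2 lists no longer leaned to one side. The interferon-stimulated genes above 0 went from 16 to 11 of 20 and the median difference from 0.19 to 0.01. For MHC genes, those above 0 went from 13 to 7 of 13 and the median from 0.17 to 0.03. None of the 13 MHC genes was called with or without it, and 2.67% of all features were called with it. At an unadjusted p under 0.05, 1 of the 13 passed with it, against 15.1%. Without replicate 1, Ifit3 differed by 0.49 and lost its call, as it did without wild type replicate 1, 3 or 4 or knockout replicate 2 (adjusted p 0.0734 to 0.175).

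**Figure D4:**
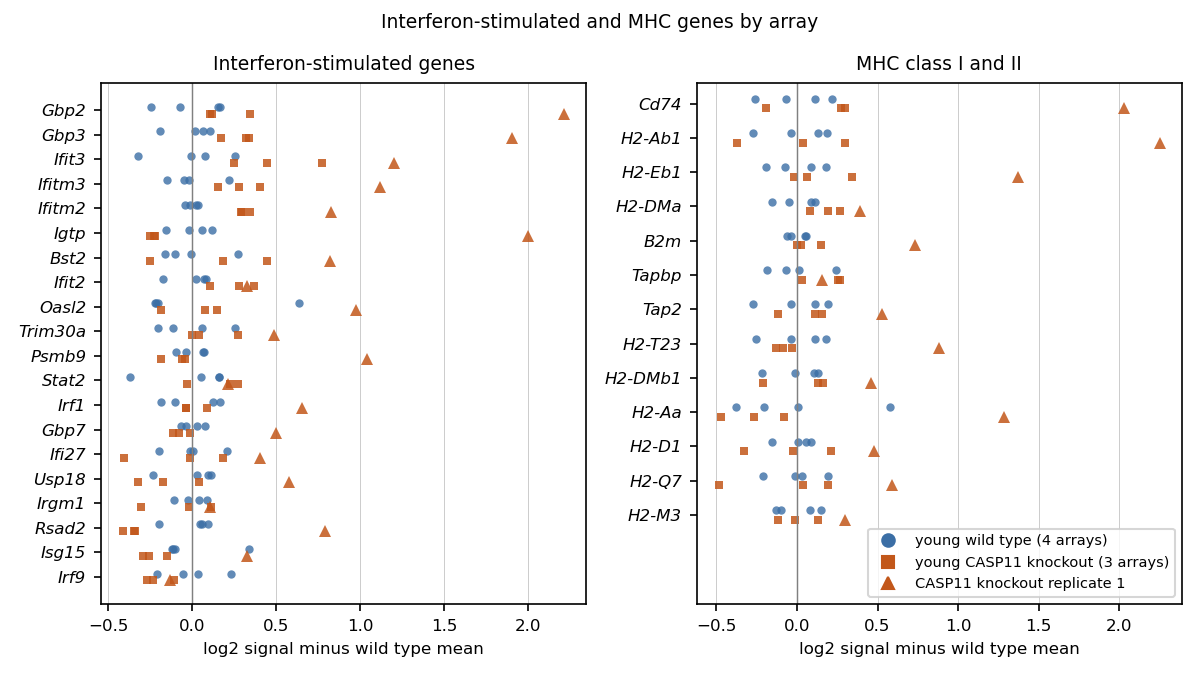
Log2 signal of each array minus the wild type mean for 20 interferon-stimulated genes (left) and 13 MHC genes (right). Circles are wild type, squares are CASP11 knockout replicates 2 to 4, and triangles are knockout replicate 1, which is highest for 15 of 20 and 12 of 13 genes.

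Among 17 homeostatic microglia genes tested, 1 was called, and it fell, against 1.85% of all features. Cx3cr1, the microglial receptor for the neuronal chemokine fractalkine, read 9.32, 9.18, 9.24 and 9.22 in wild type and 8.09, 8.17, 8.24 and 8.16 in the knockout. This 2.11-fold fall (-1.07, SE 0.16, adjusted p = 0.00018) was many times the SD of 0.06 in both groups, and the arrays did not overlap. No other of the 17 was called, in a background of 2.67% of all features. Of the 17, 14 had a difference above 0, and the median was 0.09, and 0.05 without wild type replicate 2. The purine receptors P2ry12 and P2ry13, which steer microglial processes, differed by 0.31 and 0.21, and the surface marker Tmem119 by 0.08. The summed level of the list was 12.01 to 12.14 in wild type and 12.02 to 12.14 in the knockout. In whole tissue, fewer cells of a type and less RNA per cell cannot be told apart.

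Of 13 lists of cell type markers, 9 held no called member. The myelin and mature oligodendrocyte list leaned highest. None of its 16 genes was called, against 2.67% of all features, and 5 passed at an unadjusted p under 0.05, against 15.1%. Of the 16, 15 had a difference above 0 with a median of 0.31, against 0.01 over all features. Its summed level was 14.86 to 15.34 in wild type and 15.47 to 15.54 in the knockout, so the groups did not overlap. Cnp, an enzyme of myelin, differed by 0.51 and Opalin, a protein of mature oligodendrocytes, by 0.58, with adjusted p of 0.092 and 0.17. Mog, a protein of the outer myelin sheath, read 8.47, 8.99, 8.99 and 9.06 against 9.34, 9.32, 9.29 and 9.38 (adjusted p = 0.25). Wild type replicate 1 was the lowest array for these genes, and without it the median of the list was 0.20. Between 0 and 5 myelin genes were called under the alternatives. The summed level of choroid plexus and ependyma markers was 14.39 to 14.53 in wild type and 13.63 to 14.64 in the knockout, and that of blood markers 11.12 to 12.02 and 10.55 to 11.23. The part of these cell types in the differences above was not tested.

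Synaptic genes held a few falls of modest size. Of 15 genes of synaptic vesicles and SNARE proteins, 2 fell, against 1.85% of all features. The median difference was -0.06, and -0.08 to -0.03 when single arrays were left out. Syn2, which tethers vesicles, read 11.87, 11.81, 12.20 and 11.98 in wild type and 11.02, 11.14, 10.95 and 11.15 in the knockout (-0.90, SE 0.22, adjusted p = 0.022). Syt1, the calcium sensor of release, read 12.29, 12.17, 12.33 and 12.29 against 11.85, 11.81, 11.82 and 11.73 (-0.47, adjusted p = 0.038). In both the knockout arrays lay wholly below wild type. Of 15 glutamate and GABA receptors, Gria3, an AMPA receptor subunit, was the only called one, with a fall of 0.43 (adjusted p = 0.035), and Cnr1, the cannabinoid receptor of interneurons, was the only called one of 12 interneuron markers, with a fall of 0.41 (adjusted p = 0.025). Of these 12, 3 had a difference above 0 and the median was -0.15. Their summed level was 14.43 to 14.51 in wild type and 14.33 to 14.41 in the knockout, so the groups did not overlap, and its part in the values of Scn1a was not tested. Syn2 lost its call without wild type replicate 3 or knockout replicate 1 or 3 (adjusted p 0.0616 to 0.0753). Syt1 did so without any of the 8 arrays but wild type replicate 2 (0.0713 to 0.0973), and Cnr1 without any but wild type replicate 4 (0.0583 to 0.0711). Gria3 did so without wild type replicates 1, 3 or 4 or knockout replicates 1, 3 or 4 (0.0534 to 0.122).

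Single called genes stood in 3 further lists, in a background of 0.823% of all features higher and 1.85% lower. Dpysl3, a guide of growing axons, was the only called gene of 20 neurogenesis markers, with a rise of 0.60, and lost its call without any 1 of the 8 arrays (adjusted p 0.0668 to 0.134). Errfi1, an inhibitor of the epidermal growth factor receptor, was the only called one of 15 glucocorticoid-responsive genes, with a rise of 0.38 that was lost without wild type replicate 1 or 3 or any knockout replicate (0.0541 to 0.194). Ide, a protease that degrades insulin, was the only called one of 11 genes whose expression is known to vary among inbred mouse strains, with a fall of 0.49 that was lost without any of the 8 arrays but knockout replicate 4 (0.0541 to 0.11). In all, 23 of the 37 lists held no called member.

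Genes next to a targeted locus can differ between a knockout and its control when the allele was made in another strain. Casp4 lies near the start of chromosome 9, with 8 annotated protein-coding genes before it in the order of the reference table. Of these 8 and the nearest 50 after it, 31 were tested, 1 fell and none rose, with a median difference of -0.02 and a range from -0.89 to 0.38. The gene that fell was Alkbh8, which modifies transfer RNA, the farthest of the 8. It read 6.77, 6.82, 6.96 and 7.00 in wild type and 6.08, 5.75, 5.98 and 6.18 in the knockout (adjusted p = 0.012), and lost its call without knockout replicate 2 (0.0541). Its share of 1 in 31 can be read against the 1.85% of all features that fell. Strain variants under a probe were not analysed here.

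Other probes of the same genes gave a partial check of the calls. The 50 lower genes with further kept probes had 68 of them, of which 55 had the same sign and 21, in 16 genes, were also called lower, against 1.86% of all kept probes. The median difference of these 68 was -0.27. The 29 higher genes with further probes had 40, of which 36 had the same sign and 6, in 5 genes, were called higher, against 0.773% of all kept probes, with a median of 0.15. No other probe was called in the opposite direction. Probes of a gene share its RNA and its arrays and are not replicates.

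Against the other young knockouts the CASP11 knockout showed fewer calls. With 3 young ASC knockout arrays, 32 features were called (0.286%), 6 higher (0.0537%) and 26 lower (0.233%). With 3 young CIAS knockout arrays 115 were called (1.03%), 32 higher (0.286%) and 83 lower (0.743%). These comparisons share the CASP11 knockout arrays. Left out in turn, ASC knockout replicates 1, 2 and 4 gave 17, 13 and 2 calls and CASP11 knockout replicates 1 to 4 gave 18, 11, 17 and 20. For the CIAS comparison, CIAS knockout replicates 1, 2 and 4 gave 46, 30 and 14 calls and CASP11 knockout replicates 43, 57, 32 and 57.

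Zbtb7a averaged 8.08 in young ASC and 7.77 in young CIAS knockouts, and was detected on all 3 arrays of each. The CASP11 knockout, with no array above detection, was at least 8.26-fold and 6.67-fold lower with the processing used here (adjusted p = 2.6e-05 and 0.00019). Kcna1 differed by -1.73 and -1.44 (adjusted p = 0.0038 and 0.0093), and Scn1a by -1.68 and -1.64 (0.0046 and 0.0043). Rbm3 was 0.70 and 0.89 higher (adjusted p = 0.040 and 0.0043). Dbp was 0.76 higher than in the ASC knockout (adjusted p = 0.036), with 0.59 against the CIAS knockout not passing (0.077). Cx3cr1 differed from the CIAS knockout by -0.81 (adjusted p = 0.020) and from the ASC knockout by -0.75 (adjusted p = 0.055).

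For part of the rises, young wild type itself was the group that stood low. This is a description only, since the wild type arrays helped to choose these calls. Hnrnpl averaged 10.09 in young wild type, 11.02 in the CASP11 knockout, and 11.15 and 11.08 in the young ASC and CIAS knockouts. Its differences from these 2 groups were -0.13 (adjusted p = 0.91) and -0.06 (adjusted p = 0.94). Pi4kb differed from the ASC and CIAS knockouts by 0.02 and -0.03, and Agap2 by -0.03 and -0.07, with adjusted p between 0.94 and 0.99. The old groups averaged 6.82 to 7.23 for Pi4kb and 8.07 to 8.61 for Agap2, against 6.26 and 7.62 in young wild type.

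The called features were then followed over all 32 arrays as a description, since the 8 arrays of the comparison chose them. Relative to the young wild type mean, the median of the 207 lower features was -0.63 to -0.57 on the CASP11 knockout arrays and -0.03 to 0.03 on the young wild type arrays. It was -0.25 to -0.16 on young ASC, -0.23 to -0.10 on young CIAS, -0.17 to 0.24 on old wild type, -0.39 to -0.09 on old ASC and -0.81 to -0.12 on old CIAS knockout arrays. The lowest array of all was thus 1 of the old CIAS knockout and not a CASP11 knockout array. Single genes followed this: Zbtb7a averaged 6.07 ± 1.10 (SD, n = 6) and Thsd4 6.95 ± 1.20 in old CIAS knockouts, both with a wide spread. The median of the 92 higher features was 0.36 to 0.44 on the CASP11 knockout arrays and 0.14 to 0.25 on every array of the 5 remaining groups. Array number follows genotype, from 1 to 10 for wild type to 31 to 34 for the CASP11 knockout, and its part in these medians cannot be told apart from genotype.

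**Figure D5:**
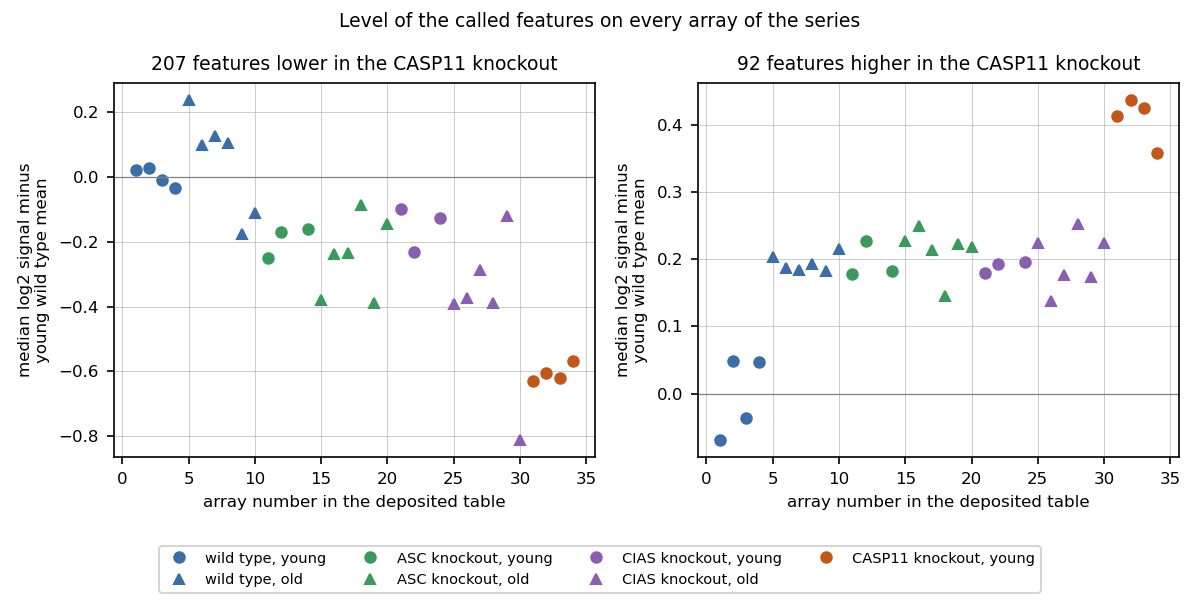
Median log2 signal minus the young wild type mean over the 207 lower (left) and 92 higher features (right), 1 point per array, against the array number in the deposited table. CASP11 knockout arrays lie at -0.63 to -0.57 on the left and 0.36 to 0.44 on the right, and 1 old CIAS knockout array reaches -0.81.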

How the data were processed

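RNA from hippocampus was measured on Illumina bead arrays, 1 for each sample. Per the file headers, the deposited main table gives mean probe intensity, not normalized between arrays, for 25697 probes. The deposited table also holds the detection p-value of every probe on every array. The submitters' processing notes name GenomeStudio, with no version stated there. Another deposited table of normalized intensity, whose method the sources used here do not state, served as an alternative only.

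With limma 3.58.1 in R 4.3.3, neqc was applied to the signals of all 32 arrays (normexp background, offset of 16, quantile normalization, log2 scale). Probes with a detection p-value under 0.05 on at least 3 arrays were kept, 14745 in all, and the probe with the highest mean stood for each gene. This left 10308 named genes and 870 unnamed probes. Names came from GEO's annotation of the array. A fit of 7 group means gave 2-sided tests with 25 residual and 4.087 prior degrees of freedom, with Benjamini-Hochberg adjustment over 11178 features. The script was tested on simulated data.

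Genes named are the probes of Casp4, Casp1 and Casp12, the 15 largest called changes in each direction, called neighbours of Casp4, and of each list the called members plus the 4 of lowest adjusted p. Cry2, Nr1d2, Hspa8, Hspa5, Gsdmd, H2-Ab1 and Tmem119 were named after their values were seen. The comparison and the 37 lists were chosen with earlier results of these data known. A called gene given without a remark kept its call under each alternative, apart from the split by Eif2s3y and the cut at 1.5-fold. That cut was applied to the count of calls only. The alternatives were other background correction, normalization, filters, samples, covariates, variance and probe choices, and leaving out each array. The number of arrays limits the precision.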

Additional observations from a re-analysis of the deposited data

Results flagged for a closer look

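In 4 arrays a single array can lie far from the other 3 that cluster together, and the groups of 4 arrays were checked for this with Dixon's criterion, the gap to the nearest array over the whole range. Chance flags about 1 in 20 groups, and 11 of 148 groups checked were flagged.

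CASP11 knockout replicate 1 was the high array for 3 interferon-induced genes. It read 8.95 for Gbp2, against 6.84 to 7.07 on the other 3 knockout arrays, 8.86 for Gbp3, against 7.13 to 7.30, and 8.40 for Irgm2, against 6.54 to 6.59. The same array was low for the chaperone Hyou1, at 5.07 against 6.25 to 6.36. For Gbp2, Gbp3 and Irgm2 the differences from wild type were not called, and without that array Gbp2 differed by 0.19, Gbp3 by 0.28 and Irgm2 by -0.03 on the log2 scale. The part of this array in the comparison is given by its omission above, and no cause was tested.

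Wild type replicate 1 stood apart for 4 genes. It was low for the RNA-binding protein Khsrp, at 6.56 against 7.10 to 7.18, and for the myelin protein Mog, at 8.47 against 8.99 to 9.06. It was high for the purine receptor P2ry13, at 7.95 against 7.68 to 7.72, and for the protease Ide, at 9.03 against 8.85 to 8.87. The rise of Khsrp kept its call without this array, and the fall of Ide did not.

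The last 3 values stood alone. CASP11 knockout replicate 3 read 8.82 for the cytokine Il18, against 8.57 to 8.61, and 6.30 for the chaperone Hspa5, against 6.57 to 6.62. Replicate 4 read 10.83 for the splicing regulator Hnrnpl, against 11.06 to 11.10.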

How the results depend on the processing

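None of the 47 called genes named changed sign under the alternatives run, which reuse the arrays that chose the calls. Signs of the other called features were not compared. The count of 299 called features stayed within 1.5 times, from 243 to 319, with the deposited normalized values, with an offset of 50, with quantile normalization alone, with the 3 other filters, the Eif2s3y covariate, trended and robust variance and the replicate number as a block over 32 arrays, and was 388 with every probe tested separately. It was 610 in a fit of the 8 arrays, 240 of them among the 299, 599 when these were also normalized by themselves, 683 with array weights and 139 at 1.5-fold or more. It ranged from 142 to 490 when single arrays were left out. Within the arrays that detected Eif2s3y it was 58 and within those that did not 18, an alternative chosen after seeing the data that leaves 2 arrays a group; the difference between them gave 0 calls by limma and 449 at an unadjusted p under 0.05. The 32 calls against young ASC knockout were 21 with no filter, 21 with the covariate, 203 with array weights, 13 with the block and 2 to 20 without single arrays. The 115 against young CIAS knockout were 59, 752, 60 and 14 to 57 under the covariate, weights, block and leaving out. Samples of like number were not shown to be paired: their deviations correlated at 0.05, 0.10, 0.09 and -0.06. With the replicate number as a block the count was 243 over 32 arrays and 567 over the 8. Of 47 called genes named, 26 kept the call under every alternative applied to single genes but the split by Eif2s3y. The cut at 1.5-fold was not applied to single genes. Hyou1 was checked under 13 of the 14 alternatives other than leaving out arrays. Among the 125 other genes named, 38 were called under at least 1 of these alternatives. The causes were not tested. Signals near background bound several falls only from below, and these bounds hold only for the background correction and offset used here.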

Other observations

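Other gene groups held no called member, in a background of 2.67% of all features, but differed in how their members leaned. Of 20 immediate early genes, which neurons switch on within minutes of activity, 17 had a difference above 0 with a median of 0.16, and 3 passed at an unadjusted p under 0.05, against 15.1% of all features. Knockout replicates 2 and 4 were the highest of the 8 arrays for 9 and 5 of the 20. When single arrays were left out, 13 to 17 were above 0 and the median was 0.11 to 0.21. Both were lowest without wild type replicate 3. Egr4, a transcription factor of this group, read 9.58, 9.88, 9.59 and 9.82 in wild type and 10.16, 10.59, 9.98 and 10.72 in the CASP11 knockout (adjusted p = 0.20). Nr4a2, a nuclear receptor of the same group, went the other way, with 7.89, 7.84, 7.84 and 7.83 against 6.97, 7.44, 7.04 and 7.79 (adjusted p = 0.18). The knockout arrays were on the outer side of all wild type arrays for both.

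Of 9 complement genes, 8 had a difference above 0 with a median of 0.21, and none was called, with 1 at an unadjusted p under 0.05, against 15.1%. CASP11 knockout replicate 1 was the highest of the 8 arrays for 6 of the 9, and without it the median was 0.13. C1qa, a chain of the first complement component that microglia make, read 6.34, 6.36, 6.45 and 6.29 in wild type and 6.72, 6.54, 6.84 and 6.58 in the knockout (0.31, adjusted p = 0.079). Hbb-bt, a haemoglobin chain of red cells, read 8.53, 9.07, 8.13 and 8.69 against 7.85, 8.08, 8.06 and 7.40 (-0.76, adjusted p = 0.072). Ociad2, a marker of hippocampal subfields, differed by -0.62 (adjusted p = 0.053), and the other 15 subfield markers tested did not come nearer to the threshold.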
